A study of Mus musculus with 20 samples.

Results

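The genes described here encode the nuclear subunits of respiratory complexes III, IV and V, measured by RNA sequencing in livers of mice on chow or on a high-fat diet. They were chosen by name: all protein-coding genes of the count table whose mm10 symbol begins with Uqcr (complex III), with Cox4, Cox5, Cox6, Cox7 or Cox8 (complex IV) or with Atp5 (complex V), without pseudogenes. The rule found 44 gene IDs among the 21897 protein-coding IDs and 55401 IDs in all. Complex III had 8 of them, complex IV 18 and complex V 18. They carried 43 symbols because Atp5o was listed under 2 IDs, and 8 pseudogenes with such symbols were left out.

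Complex III passes electrons from ubiquinol to cytochrome c, and complex IV passes them from cytochrome c to oxygen. Both move protons across the inner mitochondrial membrane, and complex V, the ATP synthase, makes ATP as the protons flow back through its ring of c subunits and turn its central stalk. A few core subunits are encoded by the mitochondrial genome, the rest are made in the cytosol from nuclear genes and imported, and the hepatocyte, which burns fatty acids and pays for glucose and urea synthesis, is rich in all 3 complexes.

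The animals were C57BL/6 mice whose livers all carried the genotype label WT, with 10 libraries from chow (chow 1 to 10) and 10 from the high-fat diet (HFD 1 to 10). The HFD provided 60% fat, 20% carbohydrate and 20% protein and lasted 12 weeks, and the comparison asks how liver expression differed between the diets. The design text mentions 1 chow group and 3 groups on the HFD, but the 10 HFD libraries share the same labels and were treated as 1 group. The labels give neither age nor sex, and they do not state that each library came from its own mouse. The p-values therefore describe the spread among libraries. These are bulk livers, in which fewer cells of a type and less RNA per cell cannot be told apart.

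Chow libraries held 34727227 to 49065587 counts and HFD libraries 20111896 to 90033879, and 2 of the latter stood apart. Mitochondrial genes took 75.6% of HFD 1 and 94.4% of HFD 2, against 1.34% to 3.10% elsewhere, which left 1906287 and 2650330 nuclear protein-coding counts. Nuclear rRNA took 20.4% of chow 9 and 13.3% of HFD 1, against at most 0.807% elsewhere. The main counts of called genes are therefore given with all 20 libraries and again without HFD 1 and HFD 2. All 10 hepatocyte markers were detected, with a summed level of 76200 to 118000 counts per 1000000 (CPM, on TMM-scaled library sizes) in chow, of 55000 to 87700 in HFD 3 to 10, and of 22500 and 18700 in HFD 1 and HFD 2. Macrophage markers summed to 309 to 565 CPM in chow and 744 to 1740 in HFD. Of these 8 markers 6 rose, and 7 without HFD 1 and HFD 2. Neutrophil markers summed to 3.62 to 4.75 CPM in chow and 20.4 to 340 in HFD. All 4 tested rose, with or without HFD 1 and HFD 2. Erythroid markers reached 4460 and 9920 CPM in HFD 1 and HFD 2, against 256 to 1560 elsewhere. Stellate and fibroblast markers summed to 75.3 to 196 CPM in chow and 104 to 332 in HFD. Of these 6 markers 3 rose, and 5 without HFD 1 and HFD 2. Among the other lists, 1 of 6 T and B cell markers rose (2 without HFD 1 and HFD 2). With or without those libraries 1 of 4 cholangiocyte markers rose. No endothelial marker was called with all libraries, and 2 of 5 rose without HFD 1 and HFD 2. Of 10 hepatocyte markers 1 fell, and without those 2 libraries 1 fell and 1 rose. Of 3 erythroid markers 2 rose, and without those 2 libraries 1 fell and 0 rose. Of all genes tested 13.0% were called higher and 7.05% lower, or 17.9% and 10.4% without HFD 1 and HFD 2. Of the muscle and fat markers only 1 cardiac gene was tested, and the striated muscle sum reached 222 CPM in HFD 1. The part of these cell types and libraries in the results below was not tested, beyond the values without HFD 1 and HFD 2.

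Of the 44 subunit genes 37 had enough counts to be tested, and 34 of these had a lower fitted level in HFD. In edgeR's quasi-likelihood test with Benjamini-Hochberg adjustment over 14542 genes, 21 fell (adjusted p under 0.05), 1 rose (Atp5l) and 15 were not called. Of all genes tested 7.05% were called lower and 13.0% higher. The median log2 change (HFD minus chow) was -0.47 over the 37 genes and 0.02 over all genes tested. Complex III had 6 of 8 lower (median -0.51), complex IV 6 of 12 (median -0.50), and complex V 9 of 17, with 1 higher (median -0.45). Abundant genes leaned the same way: 23.1% of the 1924 nuclear protein-coding genes with at least 50 CPM were called lower, with a median of -0.28. Short genes (under 1000 bases) were called lower in 14.8% of 243 cases, with a median of -0.12. The tested subunit genes ran from 535 (Cox7a1) to 6443 bases (Atp5l), and many are not short by this limit. The 81 cytosolic ribosomal protein genes had 1 lower, 5 higher and a median of 0.24. Without HFD 1 and HFD 2 they had 5 lower, 2 higher and a median of -0.11.

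Without HFD 1 and HFD 2, 21 subunit genes fell and 0 rose in edgeR, against 10.4% lower and 17.9% higher among all 14842 genes tested, and the median was -0.37. By complex, 7 of 8 fell in complex III, 5 of 12 in complex IV and 9 of 17 in complex V. At an unadjusted p under 0.05 the rising count was 1 (Atp5s), and with all libraries DESeq2 and limma voom also called 0 higher. The lists shared 19 genes: Uqcrc2 and Atp5h were called only without these libraries, and Cox6c and Atp5k only with them. The 19 shared genes had log2 changes of -0.82 to -0.41 with all libraries and of -0.65 to -0.31 without the 2, and the change was smaller without them in 18 of 19. Atp5l and 13 other genes were not called lower in either fit. In 4 genes, Uqcrc1, Atp5a1, Atp5b and Atp5c1, every HFD library lay below every chow library, which held for 2.70% of all genes tested. The same 4 genes separated the diets in this way with HFD 3 to 10 alone, where 3.41% of all genes did.

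**Figure D1:**
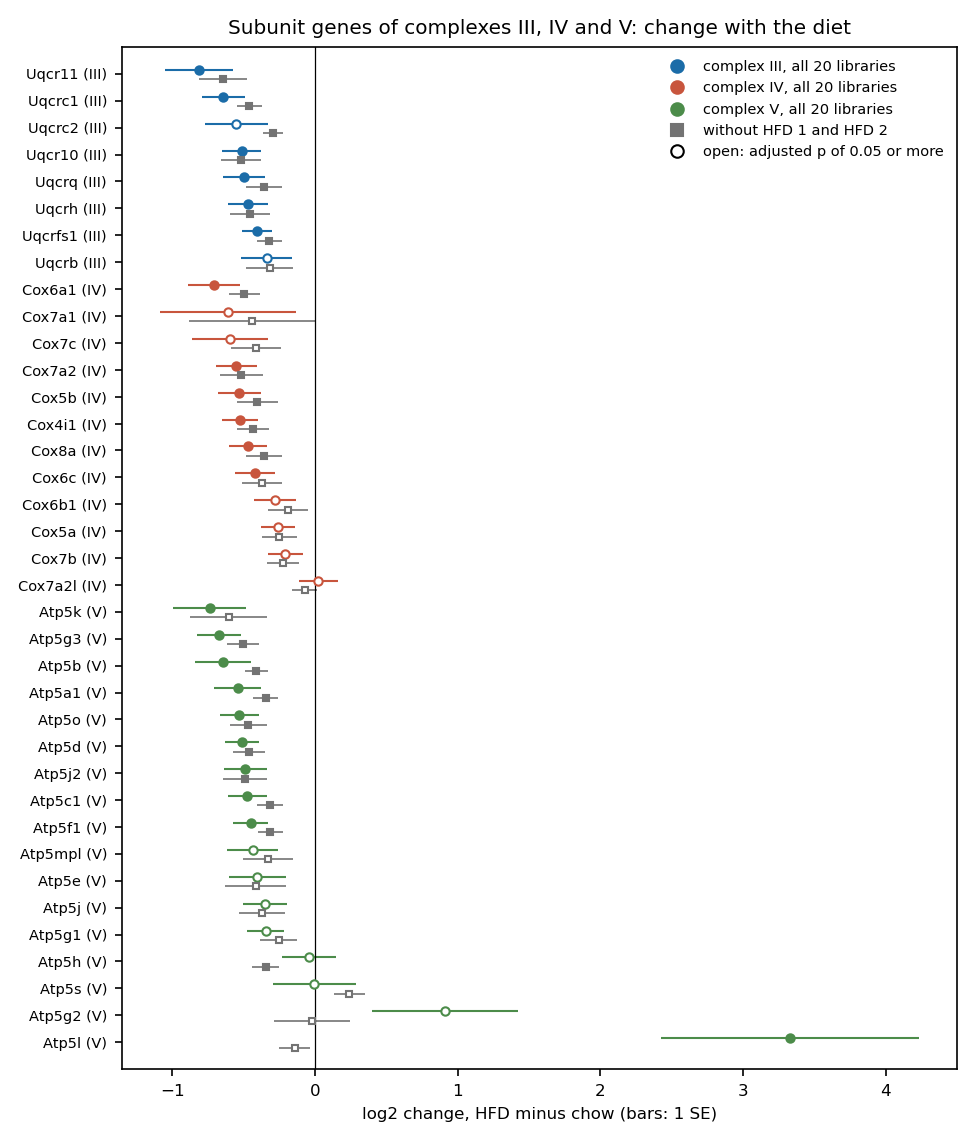
Log2 change (HFD minus chow, x axis) of each tested subunit gene, with 1 SE, from all 20 libraries (coloured circles) and without HFD 1 and HFD 2 (grey squares); open symbols did not pass the test. Most genes sit between -0.2 and -0.8, and the Atp5l point at 3.33 moves to -0.14 without the 2 libraries.

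Levels differed widely between subunits of the same complex. Per kilobase of exon, the highest chow means were those of Atp5a1 (307 CPM per kilobase) and Atp5b (288), the alpha and beta head subunits. Cox6b1 (281) and Cox4i1 (244) followed. Within complex III the means ran from 63.5 CPM per kilobase for Uqcrc1 to 170.0 for Uqcrh. At the low end, Atp5g1 had 7.77 CPM per kilobase, Cox7a1 1.11, Atp5l 0.46 and Atp5g2 0.25. Atp5l, encoding a small membrane subunit, was ranked low on this scale partly by construction, since the authors' FPKM table gave it a length of 6443 bases, longer than any other complex V gene named here. A level per kilobase rests on that 1 length per gene, whichever transcript the liver makes.

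**Figure D2:**
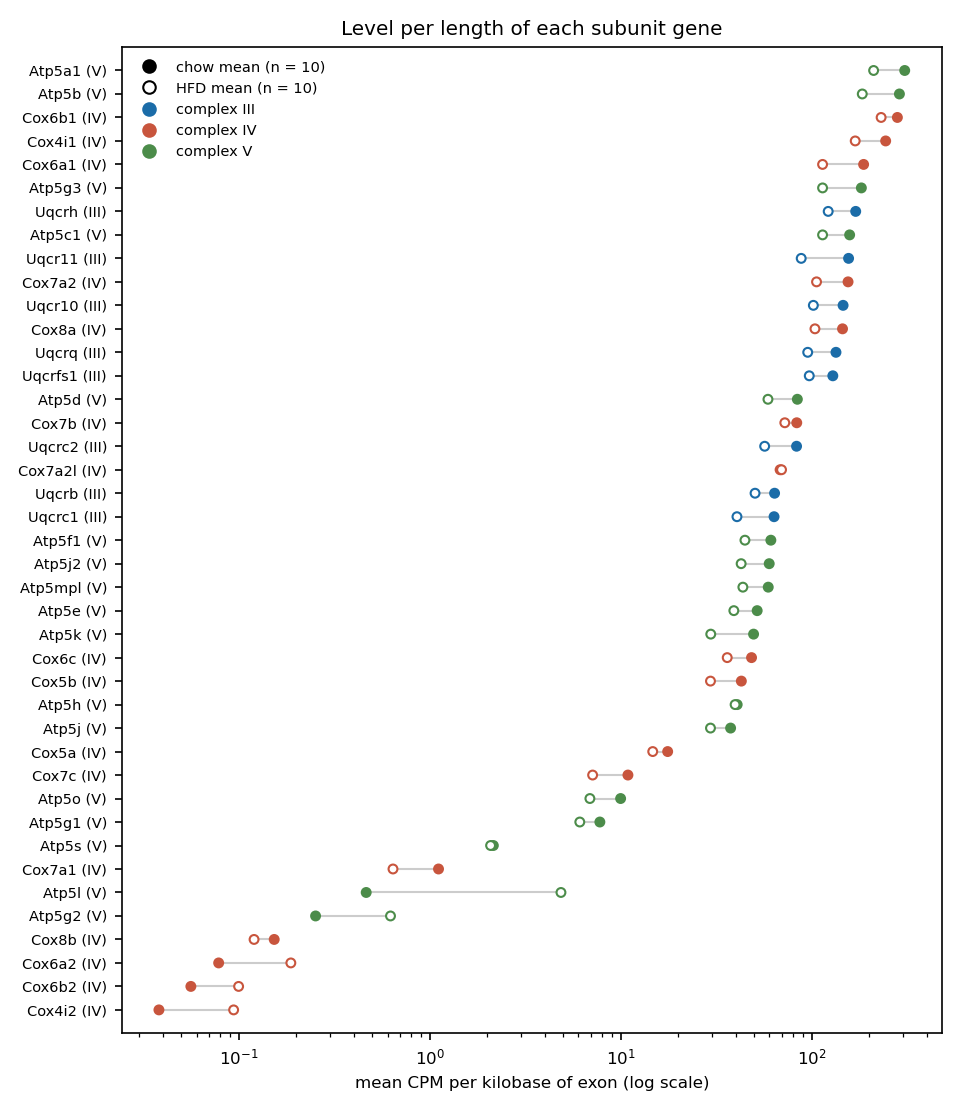
Mean CPM per kilobase of exon (x axis, log scale) in chow (filled) and HFD (open) for each subunit gene with counts, coloured by complex. The chow values fall from 307 for Atp5a1 to under 0.2 for the isoforms of other tissues at the bottom (Cox8b, Cox6a2, Cox6b2 and Cox4i2).

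Core protein 1 of complex III, its Rieske protein and 4 small subunits fell in HFD, while core protein 2 passed only without HFD 1 and HFD 2 and Uqcrb did not pass. Uqcrc1 (chr9:108936633-108949623, plus strand) encodes core protein 1, which faces the matrix. It was measured at 238 to 302 CPM in chow (median 253) and at 91.5 to 229 in HFD (median 175), and no HFD library reached the lowest chow library. Its log2 change was -0.64 (SE 0.149, adjusted p = 0.00389), and -0.46 (SE 0.0861, adjusted p = 0.00046) without HFD 1 and HFD 2. Its partner Uqcrc2, core protein 2, lay at 184 to 233 CPM in chow (median 215) and at 37.9 to 193 in HFD (median 164). The 2 lowest values were HFD 1 and HFD 2, at 25.3% and 17.8% of the chow mean, while HFD 3 to 10 lay at 143 to 193 CPM. With all libraries Uqcrc2 did not pass (log2 -0.55, SE 0.22, adjusted p = 0.0801), and without the 2 it did, with a smaller change and a smaller error (log2 -0.29, SE 0.072, adjusted p = 0.00477).

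Uqcrfs1, the Rieske iron-sulfur protein that takes electrons from ubiquinol, was at 149 to 229.7 CPM in chow (median 173) and 103 to 151 in HFD (median 135). In 9 of 10 HFD libraries it was below every chow library, with a log2 change of -0.41 (SE 0.104, adjusted p = 0.00828) and of -0.32 without HFD 1 and HFD 2. Uqcr11 and Uqcr10 encode small subunits at the edge of the complex. Uqcr11 had 68.2 to 148 CPM in chow (median 103) and 11.0 to 76.8 in HFD (median 58.5), the largest fall of complex III (log2 -0.82, SE 0.238, adjusted p = 0.0187; -0.65 without HFD 1 and HFD 2). Its lowest value, 11.0 CPM, was in HFD 1, and 6 of 10 HFD libraries lay below the chow range. Uqcr10 had 56.5 to 130.3 CPM in chow (median 87.8) and 43.5 to 70.05 in HFD (median 64.7), with overlap of the ranges in 6 HFD libraries (log2 -0.51, SE 0.137, adjusted p = 0.0104; -0.52 without HFD 1 and HFD 2). Uqcrh, the hinge protein beside cytochrome c1, ran from 159 to 332 CPM in chow (median 209) and from 99.7 to 178 in HFD (median 155), a log2 change of -0.47 (adjusted p = 0.0201). Uqcrq, a small ubiquinone-binding subunit, ran from 204.5 to 353 CPM in chow (median 237) and from 109 to 229 in HFD (median 179.7), a log2 change of -0.50 (adjusted p = 0.0205). Uqcrb, whose protein also contacts ubiquinone, was not called: 43.4 to 83.7 CPM in chow (median 56.3) against 20.2 to 64.7 in HFD (median 44.1), log2 -0.34 (SE 0.177, adjusted p = 0.183). Of its 50-base windows 25.4% also occur in transcripts of other genes, so part of its reads could have been counted elsewhere or borrowed. Genes called lower with all libraries share windows too. Their shares were highest for Cox5b (11.9%), Cox6a1 (9.16%), Atp5f1 (8.58%), Atp5o (7.58%) and Uqcr11 (6.27%), and at most 3.14% (Atp5c1) in the others.

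Promoters of some genes that fell are shown, because respiratory subunit genes are textbook targets of the factors NRF1, GABP (an ETS factor) and YY1. The core motifs searched on both strands were GCGCANGC (NRF1), CCGGAAG (ETS/GABP), AANATGGC (YY1) and GGGCGG (SP1), overlapping matches counted separately, in RefSeq windows of 300 bases (GRCm38.p6) from 250 before to 50 after the start. A window was at hand for 33 subunit genes. The NRF1 core was in 12 of 33 (36.4%), against 21.5% of 10238 tested genes and 11.2% of all 27025 genes with a window. The ETS/GABP core was in 10 (30.3%), against 19.3% of tested genes, and the YY1 core in 5 (15.2%), against 9.7%. The SP1 core was in 12 (36.4%), below the 66.6% of tested genes. Either the NRF1 or the ETS/GABP core was in 17 of 33 (51.5%), against 36.1% of tested genes. A match is a description of letters and not of binding. In the windows printed here, in lower case 5′ to 3′ on the gene's strand, capitals mark matches to the first 3 motifs. Uqcrc1 (chr9:108936398-108936697, plus strand) had 3 NRF1 matches just downstream of its start, 2 of which overlap. Uqcr11 (chr10:80406772-80407071, minus strand) had an NRF1 match across its start and an ETS/GABP match 66 bases upstream. Of the other complex III genes with a window, all of which fell, Uqcrh held an ETS/GABP match. Uqcr10 and Uqcrfs1 held none of the 3 motifs.
Uqcrc1: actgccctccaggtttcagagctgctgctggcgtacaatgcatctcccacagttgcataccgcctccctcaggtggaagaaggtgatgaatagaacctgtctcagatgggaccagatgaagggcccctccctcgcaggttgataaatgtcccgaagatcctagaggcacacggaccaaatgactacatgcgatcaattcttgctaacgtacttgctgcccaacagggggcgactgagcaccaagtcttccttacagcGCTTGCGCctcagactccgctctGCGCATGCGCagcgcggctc
Uqcr11: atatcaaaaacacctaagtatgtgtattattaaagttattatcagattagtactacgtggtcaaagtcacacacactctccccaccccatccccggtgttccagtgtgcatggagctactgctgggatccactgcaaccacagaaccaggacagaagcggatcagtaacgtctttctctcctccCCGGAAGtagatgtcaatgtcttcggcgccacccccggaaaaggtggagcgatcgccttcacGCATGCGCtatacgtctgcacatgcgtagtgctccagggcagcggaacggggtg

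In complex IV the liver isoforms Cox4i1, Cox6a1, Cox7a2 and Cox8a fell, while Cox6b1 and Cox7b, which were also abundant, did not pass. The lung, muscle or testis counterparts of these 6 genes had few or no counts. Cox4i1 (chr8:120668222-120674207, plus strand), the common isoform of the largest nuclear subunit, was at 311 to 527 CPM in chow (median 372) and at 206 to 318 in HFD (median 249). In 9 of 10 HFD libraries it lay below every chow library, and its log2 change was -0.52 (SE 0.125, adjusted p = 0.00487), or -0.44 without HFD 1 and HFD 2. Its lung isoform Cox4i2 had 16 counts in all of chow and 54 in all of HFD and was not tested. Cox6a1, the liver form of subunit VIa, had 103 to 179 CPM in chow (median 132) and 36.3 to 104 in HFD (median 86.6). It was lowest in HFD 1 and HFD 2 (37.5 and 36.3 CPM), and HFD 3 to 10 lay at 65.5 to 104. Its log2 change of -0.71 (SE 0.182, adjusted p = 0.00837) was -0.49 (SE 0.111, adjusted p = 0.00233) without those 2 libraries. The muscle form Cox6a2 had 30 counts in chow and 94 in HFD.

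Cox7a2, the liver form of subunit VIIa, was at 112 to 244 CPM in chow (median 141.5) and 56.1 to 116 in HFD (median 104), with 8 of 10 HFD libraries below the chow range (log2 -0.55, SE 0.146, adjusted p = 0.0102; -0.52 without HFD 1 and HFD 2). Cox7a1, its muscle form, was near the limit of detection, at 0.23 to 1.03 CPM in chow (median 0.61) and 0 to 0.75 in HFD (median 0.34). It had 0 counts in HFD 1, HFD 2 and HFD 6, and its log2 change was -0.61 (SE 0.477, adjusted p = 0.39). Cox7a2l encodes a related protein linked to the joining of complexes III and IV into supercomplexes, a role not tested in these mice. It was at 86.9 to 139 CPM in chow (median 98.3) and 84.9 to 185 in HFD (median 94.1), with the top value in HFD 2 and the other HFD libraries at 84.9 to 107. The diets overlapped, with 7 of 10 HFD libraries inside the chow range, and its log2 change was 0.02 (SE 0.137, adjusted p = 0.925), or -0.07 (SE 0.0859, adjusted p = 0.563) without HFD 1 and HFD 2. The 203 of its 1468 windows (13.8%) that it shares with the gene model Gm6969 leave its counts uncertain.

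Cox8a, the liver form of the smallest subunit, ran from 73.6 to 128 CPM in chow (median 87.7) and from 43.9 to 77.5 in HFD (median 69.2), a log2 change of -0.47 (SE 0.133, adjusted p = 0.0157). Its muscle form Cox8b had 31 counts in chow and 44 in HFD, and the testis form Cox8c had 0 in both. Cox5b, a zinc-binding subunit on the matrix side, ran from 46.5 to 88.3 CPM in chow (median 71.2) and from 28.1 to 60.1 in HFD (median 48.2), a log2 change of -0.53 (SE 0.151, adjusted p = 0.0158). Cox6c, a small membrane subunit, ran from 124 to 247 CPM in chow (median 177) and from 83.3 to 154 in HFD (median 135). It passed with all libraries (log2 -0.42, SE 0.14, adjusted p = 0.0367) and not without HFD 1 and HFD 2 (log2 -0.37, adjusted p = 0.0536), and 9 of the 20 fits that left out 1 library also lost it.

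The remaining complex IV genes were not called, although their log2 changes were below 0. Cox5a, which sits beside Cox5b, had 29.6 to 48.8 CPM in chow (median 36.6) and 18.2 to 35.4 in HFD (median 32.1), log2 -0.26 (adjusted p = 0.131). Cox6b1, which holds the dimer together on the cytochrome c side, had 161 to 266 CPM in chow (median 206) and 87.1 to 201 in HFD (median 165), log2 -0.28 (adjusted p = 0.184). Its testis form Cox6b2 had 32 counts in chow and 80 in HFD. Cox7b, a small membrane subunit, had 76.8 to 138 CPM in chow (median 102) and 63.0 to 112 in HFD (median 88.6), log2 -0.21 (adjusted p = 0.237), and its testis form Cox7b2 had 0 counts. Cox7c, another membrane subunit, had 9.10 to 18.4 CPM in chow (median 12.2) and 0.58 to 11.7 in HFD (median 8.54), log2 -0.60 (SE 0.265, adjusted p = 0.117). The low end of Cox7c was HFD 1, at 4.66% of the chow mean, and 22.1% of its windows are shared with gene models of its copies.

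In complex IV the motifs were found in Cox6a1 and Cox8a and once each in Cox6b1 (ETS/GABP) and Cox7b (YY1), neither of which was called. Cox6a1 (chr5:115348909-115349208, minus strand) had 3 NRF1 matches, 2 of them overlapping 162 bases upstream, and an ETS/GABP match 16 bases upstream. Cox8a (chr19:7217567-7217866, minus strand) had 2 ETS/GABP matches around its start. Cox7a2l (chr17:83514284-83514583, minus strand), which did not pass the test, is printed beside them and held none of the 3 motifs, as did Cox7a2 and Cox5b, which fell.
Cox6a1: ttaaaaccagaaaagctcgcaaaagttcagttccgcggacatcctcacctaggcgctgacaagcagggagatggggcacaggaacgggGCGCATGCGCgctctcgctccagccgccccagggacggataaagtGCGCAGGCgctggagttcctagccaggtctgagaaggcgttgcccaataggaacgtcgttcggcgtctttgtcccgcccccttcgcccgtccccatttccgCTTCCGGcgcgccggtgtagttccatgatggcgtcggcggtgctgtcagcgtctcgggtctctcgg
Cox8a: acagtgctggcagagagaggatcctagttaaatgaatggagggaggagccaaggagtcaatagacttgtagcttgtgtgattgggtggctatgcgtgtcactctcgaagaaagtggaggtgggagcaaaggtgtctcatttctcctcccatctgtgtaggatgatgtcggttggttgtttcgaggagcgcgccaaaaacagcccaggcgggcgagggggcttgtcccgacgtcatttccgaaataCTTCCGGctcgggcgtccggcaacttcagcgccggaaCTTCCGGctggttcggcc
Cox7a2l: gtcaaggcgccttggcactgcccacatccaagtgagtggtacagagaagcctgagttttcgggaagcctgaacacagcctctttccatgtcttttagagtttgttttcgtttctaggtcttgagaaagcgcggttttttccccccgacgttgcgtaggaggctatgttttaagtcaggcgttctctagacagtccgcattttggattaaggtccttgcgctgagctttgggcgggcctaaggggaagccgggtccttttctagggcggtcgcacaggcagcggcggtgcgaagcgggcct

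**Figure D3:**
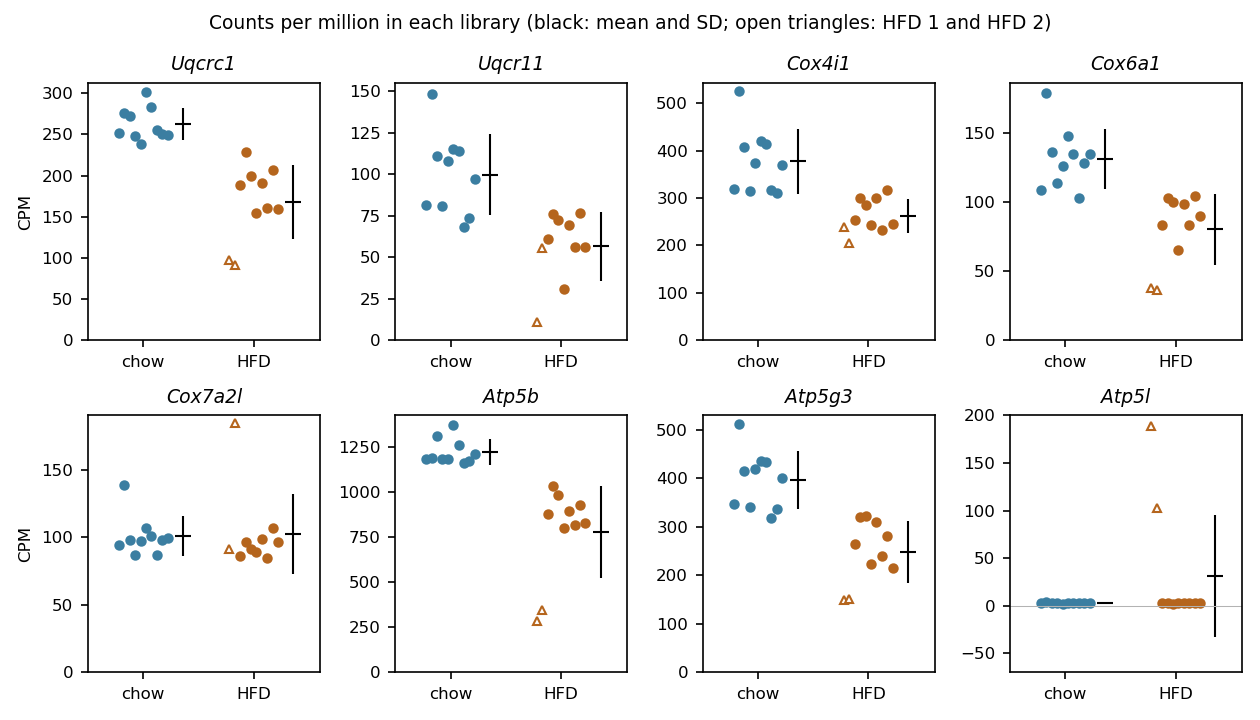
CPM (y axis) of 8 subunit genes in each chow and HFD library, with the mean and SD in black and HFD 1 and HFD 2 as open triangles. Uqcrc1 and Atp5b separate the diets completely, Cox7a2l overlaps, and Atp5l is high only in HFD 1 (188 CPM) and HFD 2 (103 CPM).

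In the head of the ATP synthase and its gamma subunit, 3 genes separated the diets completely. Atp5b (chr10:128083273-128090391, plus strand) encodes the catalytic beta subunit and was the most abundant gene of the set by CPM. It was at 1158 to 1367 CPM in chow (median 1184) and at 284 to 1028 in HFD (median 853). HFD 1 and HFD 2 had 284 and 348 CPM, and HFD 3 to 10 ran from 799 to 1028, all below chow. Its log2 change was -0.65 (SE 0.195, adjusted p = 0.0229) with all libraries and -0.41 (SE 0.0802, adjusted p = 0.000658) without those 2. Atp5a1 encodes the alpha subunit that alternates with beta in the head. It was at 898 to 1070.0 CPM in chow (median 947) and at 332 to 881 in HFD (median 719.8), again without overlap (log2 -0.54, SE 0.165, adjusted p = 0.0234; -0.35, SE 0.0881, adjusted p = 0.00614 without HFD 1 and HFD 2). Its call was lost without chow 6 (adjusted p = 0.0527). Atp5c1, the gamma subunit that turns inside the head, was at 278.5 to 370.4 CPM in chow (median 291) and 128 to 272 in HFD (median 229), the fourth gene without overlap (log2 -0.47, SE 0.136, adjusted p = 0.0172).

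The small stalk subunits were less uniform. Atp5d, the delta subunit, was at 132 to 226 CPM in chow (median 163) and 81.8 to 133.5 in HFD (median 119), and 9 of 10 HFD libraries lay below the chow range (log2 -0.51, SE 0.118, adjusted p = 0.00379; -0.46 without HFD 1 and HFD 2). Atp5e, the epsilon subunit, was at 55.2 to 161 CPM in chow (median 92.8) and 25.9 to 90.4 in HFD (median 75.5). Only 1 HFD library, HFD 6, lay below the chow range, and Atp5e was not called (log2 -0.40, SE 0.199, adjusted p = 0.159).

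In the peripheral stalk, which keeps the head from turning, 2 of 4 genes fell with all libraries. Atp5f1, the b subunit, was at 221 to 308 CPM in chow (median 247) and 118 to 221 in HFD (median 194.5), with 9 of 10 HFD libraries below the chow range (log2 -0.45, SE 0.124, adjusted p = 0.0134; -0.31 without HFD 1 and HFD 2). Atp5o, which encodes OSCP at the tip of the stalk, was at 16.0 to 34.9 CPM in chow (median 18.6) and 9.24 to 16.2 in HFD (median 13.7), also with 9 of 10 below the range (log2 -0.53, SE 0.139, adjusted p = 0.00965). Its second ID had 0 counts in every library. Atp5j, coupling factor F6, was at 94.0 to 167 CPM in chow (median 118) and 37.8 to 120.1 in HFD (median 93.6) and was not called (log2 -0.35, SE 0.157, adjusted p = 0.121). Atp5h, the d subunit, was at 49.8 to 88.7 CPM in chow (median 57.8) and 40.1 to 112 in HFD (median 47.9). It was high in HFD 1 (103 CPM) and HFD 2 (112 CPM) and at 40.1 to 50.4 CPM in the other 8. Its log2 change was thus -0.04 (SE 0.189, adjusted p = 0.902) with all libraries and -0.35 (SE 0.0955, adjusted p = 0.0105) without the 2. Of the windows of Atp5h 19.9% occur in other genes, 291 of 1520 in the processed pseudogene Gm10250. Atp5s, a coupling factor of the synthase, was at 3.57 to 5.29 CPM in chow (median 4.37) and 0 to 7.22 in HFD (median 4.65), with 0 counts in HFD 1 and the top in HFD 6. It was not called with all libraries (log2 -0.0039, SE 0.289, adjusted p = 0.994) or without HFD 1 and HFD 2 (log2 0.24, SE 0.106, adjusted p = 0.0985).

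The c subunit of the rotating ring is encoded by 3 genes whose mature proteins are the same. Atp5g3 (chr2:73908447-73911326, minus strand), which carried nearly all of it here, was at 318 to 512 CPM in chow (median 408) and 149.8 to 322 in HFD (median 252). It had the smallest adjusted p of the set (log2 -0.67, SE 0.154, adjusted p = 0.00347; -0.51 without HFD 1 and HFD 2), and 8 of 10 HFD libraries lay below the chow range. Atp5g1 was at 31.3 to 53.0 CPM in chow (median 37.6) and 20.1 to 45.7 in HFD (median 29.4), with its top in HFD 10, and was not called (log2 -0.34, SE 0.13, adjusted p = 0.0653). Atp5g2 was at 0.21 to 0.66 CPM in chow (median 0.39) and 0.18 to 4.04 in HFD (median 0.47). Its HFD 1 and HFD 2 values, 4.04 and 3.14 CPM, were 959% and 745% of the chow mean, and it was not called (log2 0.91, SE 0.512, adjusted p = 0.223; -0.02 without those 2). Atp5g2 shares 36.7% of its windows with the pseudogenes Gm10175 and Gm10231. Atp5g1 shares 11.1% of its 4881 windows with other genes, 335 of them with the gene model Gm10039. The counts of both are therefore uncertain, while Atp5g3 shares 0%. The part of these copies in the isoform shares below was not tested.

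As shares of the summed FPKM of the 3 genes, Atp5g3 made up 95.7% ± 0.471 in chow and 94.0% ± 2.31 in HFD (SD, 10 libraries each). Atp5g1 made up 4.12% ± 0.469 and 5.28% ± 1.58. Atp5g2 made up 0.133% ± 0.039 and 0.711% ± 1.12. Each share differed between the diets (2-sided permutation test, 100000 resamples, adjusted p = 0.0319 each over 3 shares). The 3 shares make up the whole in each library, so they are tied and are not independent results. Without HFD 1 and HFD 2 the differences were smaller and did not pass (exact permutation test, adjusted p = 0.129 each). As shares of summed counts, which are not divided by gene length, Atp5g1 made up 8.82% in chow and 11.1% in HFD, a difference of 2.3 percentage points against 1.16 from FPKM (permutation test, adjusted p = 0.0318). In the FPKM shares 3 libraries stood highest: Atp5g1 took 6.64% (HFD 1), 6.75% (HFD 2) and 8.57% (HFD 10), against 3.52% to 5.52% in all others.

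The membrane subunits that line the dimer interface held the rise of the set and one of its larger falls. Atp5j2, the f subunit, was at 157.5 to 288 CPM in chow (median 192) and 66.8 to 174 in HFD (median 148) and fell (log2 -0.49, SE 0.151, adjusted p = 0.026), though not without chow 2 or chow 6. Atp5k, the e subunit, was at 16.7 to 48.7 CPM in chow (median 32.8) and 4.73 to 28.7 in HFD (median 19.7). It passed narrowly (log2 -0.74, SE 0.256, adjusted p = 0.045), and not without HFD 1 and HFD 2 (log2 -0.61, adjusted p = 0.101) or in 12 of the 20 fits that left out 1 library. Atp5mpl, a small proteolipid of the synthase, was at 43.6 to 113 CPM in chow (median 76.2) and 30.1 to 72.7 in HFD (median 51.5) and was not called (log2 -0.44, SE 0.176, adjusted p = 0.0833).

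Atp5l (chr9:44912557-44920742, minus strand), the g subunit, was the only gene of the set to rise, and the rise came from 2 libraries. It was at 2.13 to 4.13 CPM in chow (median 2.97) and at 2.34 to 2.85 in HFD 3 to 10, but at 188 CPM in HFD 1 and 103 in HFD 2. The fit gave a log2 change of 3.33 (SE 0.904, adjusted p = 0.0126), and without those 2 libraries it was -0.14 (SE 0.108, adjusted p = 0.343). Leaving out HFD 1 or HFD 2 alone kept the call, with log2 changes over all single-library omissions of 2.13 to 3.48. Atp5l shares 8.73% of its 6487 windows with 641 other genes, and 260 with the processed pseudogene Gm10221, named after its values were seen. Gm10221 had 38.5 to 95.1 CPM in chow and 25.2 to 59.8 in HFD, with 39.8 in HFD 1 and 32.3 in HFD 2, and was thus above Atp5l in all libraries but those 2. How the counting program divided reads between such copies is not given in the sources used here, so the level of Atp5l is uncertain in all libraries.

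Promoter windows of 3 complex V genes that fell are shown. Atp5b (chr10:128083057-128083356, plus strand) held a YY1 match 18 bases past its start and no NRF1 or ETS/GABP core. Atp5g3 (chr2:73911277-73911576, minus strand) held an NRF1 match 15 bases past its start. Atp5k (chr5:108434350-108434649, minus strand) held 2 overlapping NRF1 matches upstream and an ETS/GABP match 13 bases past its start. Atp5l, which did not fall and whose level is uncertain, held 1 NRF1 and 2 ETS/GABP matches. Matches were also in Atp5c1, Atp5f1, Atp5j2 and Atp5o, which fell, while Atp5d, which fell too, held none of the motifs marked. Of the genes not called with all libraries, Atp5e, Atp5g2, Atp5h, Atp5j and Atp5s held matches and Atp5g1 held none. Whether the motifs go with the calls was not tested.
Atp5b: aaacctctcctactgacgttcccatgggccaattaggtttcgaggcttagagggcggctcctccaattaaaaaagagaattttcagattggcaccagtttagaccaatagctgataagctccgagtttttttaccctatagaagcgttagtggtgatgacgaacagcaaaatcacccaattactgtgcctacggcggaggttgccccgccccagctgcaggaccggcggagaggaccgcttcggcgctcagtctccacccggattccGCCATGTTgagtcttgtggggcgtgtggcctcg
Atp5g3: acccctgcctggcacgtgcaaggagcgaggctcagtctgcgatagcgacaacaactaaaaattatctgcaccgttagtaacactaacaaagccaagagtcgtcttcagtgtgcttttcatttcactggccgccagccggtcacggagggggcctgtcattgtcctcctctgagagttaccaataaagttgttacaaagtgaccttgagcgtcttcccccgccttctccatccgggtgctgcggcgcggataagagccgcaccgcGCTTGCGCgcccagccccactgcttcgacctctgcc
Atp5k: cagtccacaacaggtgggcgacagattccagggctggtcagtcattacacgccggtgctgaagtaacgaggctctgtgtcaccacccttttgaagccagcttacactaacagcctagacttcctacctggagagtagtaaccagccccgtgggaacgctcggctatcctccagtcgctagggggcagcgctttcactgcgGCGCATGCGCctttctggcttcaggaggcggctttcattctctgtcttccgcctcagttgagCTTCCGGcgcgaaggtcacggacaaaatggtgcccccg

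Chow 2 and HFD 6 were the extreme libraries for most genes of the set. Chow 2 was the highest chow library in 31 of the 37 tested genes, and in 26.1% of all genes tested. Its median log2 level relative to the chow mean was 0.48 over the set, with 0.55, 0.47 and 0.47 for complexes III, IV and V. Among HFD 3 to 10, HFD 6 was the lowest in 30 of 37, and in 37.2% of all genes tested, with a median of -0.99. The other 7 of these libraries had medians between -0.57 (HFD 8) and -0.22 (HFD 4), below 0 in each, while chow 8, 1 and 4 reached -0.30, -0.24 and -0.22. The library medians of the diets thus overlapped. Chow 2 also had the lowest summed endothelial (71.5 CPM), stellate (75.3 CPM) and macrophage (309 CPM) markers of chow. Its hepatocyte (118000 CPM) and erythroid (1160 CPM) sums were the highest of chow. HFD 6 had the lowest macrophage (744 CPM) and T and B cell (0.452 CPM) markers of HFD. Among HFD 3 to 10 it had the lowest endothelial (164 CPM) and the highest erythroid (1560 CPM) sum. The part of cell makeup in these library differences was not tested. Without HFD 6 and chow 2, a choice made after seeing the data, 18 subunit genes fell, with a median of -0.35. Without HFD 1, HFD 2, HFD 6 and chow 2 the count was 20 and the median -0.23.

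**Figure D4:**
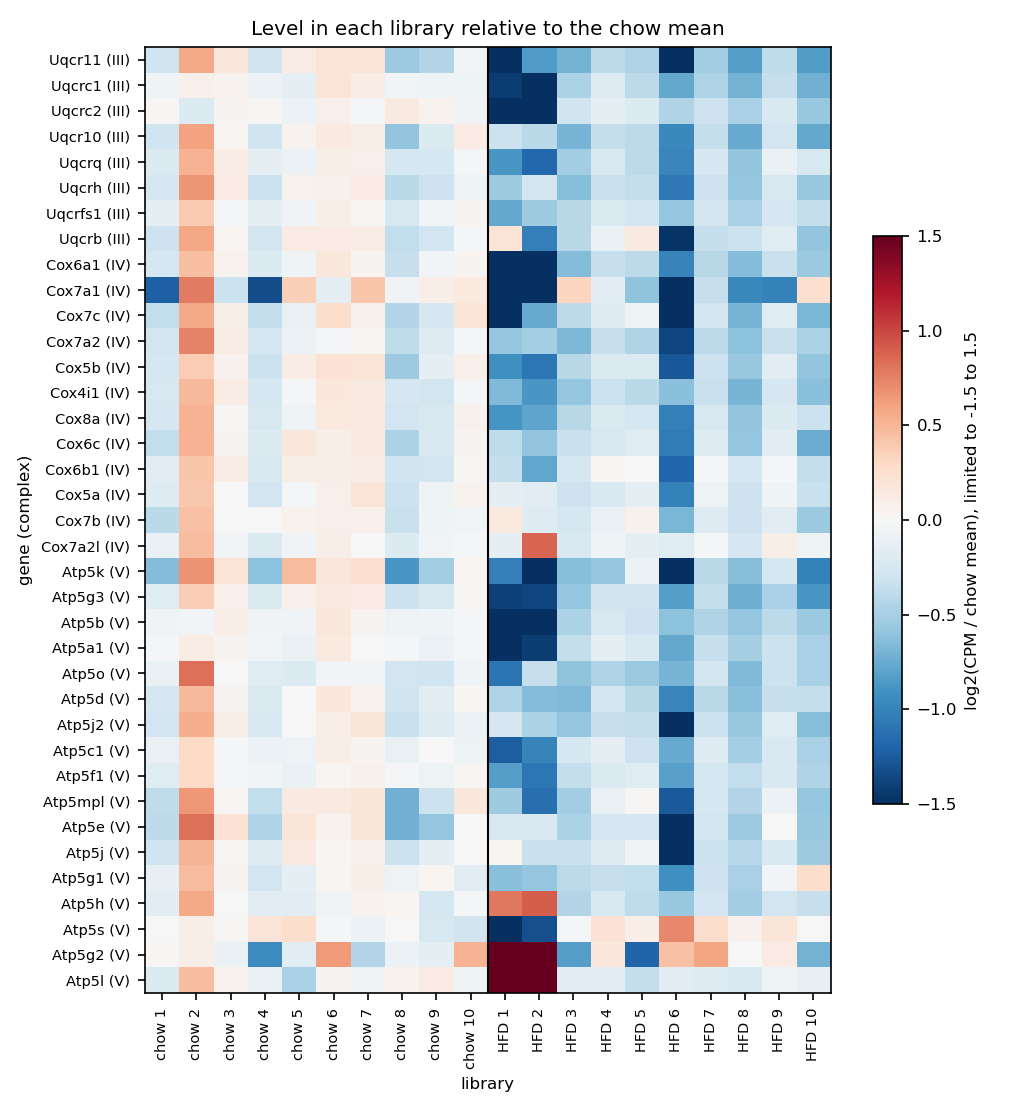
Log2 of the CPM over the chow mean (colour, cut off at both ends of the scale) for each tested gene (rows, with its complex) in each library (columns; the black line parts chow from HFD). Chow 2 is red and HFD 6 blue in most rows, while HFD 1 and HFD 2 are dark blue for Uqcrc1, Uqcrc2, Cox6a1, Atp5a1 and Atp5b and red for Atp5h, Atp5g2 and Atp5l.

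The genes differed in their spread within chow. The coefficient of variation over the 10 chow libraries was under 10% in 6 genes: Atp5a1 (5.64%), Atp5b (5.78%), Uqcrc2 (6.53%), Uqcrc1 (7.52%), Atp5f1 (9.22%) and Atp5c1 (9.36%). The median was 17.8% over the 37 genes and 11.5% over the 1924 abundant genes. Among the called genes it was highest for Atp5k (35.5%), Atp5o (28.0%) and Cox7a2 (25.5%). The same 6 genes were at 17.8% to 56.3% of their chow means in HFD 1 and HFD 2. Small subunits were spread widely in these libraries: Cox5a was at 90.8% and 89.0% and Atp5e at 84.8% and 85.2%, while Cox6a1 was at 28.6% and 27.7% and Cox7c at 4.66% and 59.2%. In HFD 3 to 10 the 6 genes were at 71.0% (Uqcrc1) to 79.7% (Uqcrc2) of their chow means.

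**Figure D5:**
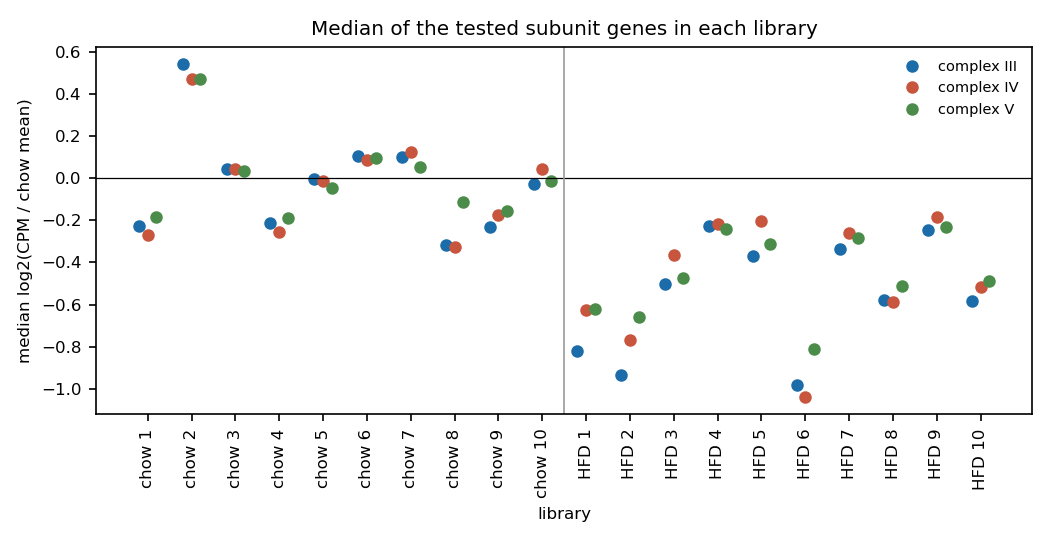
Median log2 of the CPM over the chow mean (y axis) over the tested genes of each complex in each library (x axis; the grey line parts the diets). Chow 2 is highest at 0.47 to 0.55 and HFD 6 lowest at -0.81 to -1.04, and the complexes lie apart in some libraries, as in HFD 2 with -0.94 for complex III and -0.66 for complex V.

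Among genes that work with these subunits, the share called lower differed between the lists. The counts of these lists stand beside 7.05% lower among all genes tested and 23.1% among abundant ones, or 10.4% and 25.4% without HFD 1 and HFD 2. The shares called higher were 13.0% and 6.6%, or 17.9% and 9.82% without those libraries. Cyc1, the cytochrome c1 of complex III that the name rule does not take, was at 128.5 to 192 CPM in chow (median 143) and 36.9 to 121 in HFD (median 102), below chow in 10 of 10 libraries (log2 -0.71, SE 0.185, adjusted p = 0.00919). Of the 7 complex III genes outside the rule 2 fell, the other being the assembly factor Uqcc1 (log2 -0.51, adjusted p = 0.0398), and 2 without HFD 1 and HFD 2. Of 21 tested complex IV partners 4 fell: the assembly factors Cox16 (log2 -0.56, adjusted p = 0.00984) and Surf1 (log2 -0.48, adjusted p = 0.0453), the translation activator Taco1 (log2 -0.66, adjusted p = 0.0236), and the subunit Ndufa4 (log2 -0.48, adjusted p = 0.0446). Without HFD 1 and HFD 2 the count was 3, and Ndufa4 did not pass (adjusted p = 0.0881). Both counts are shares between those of all genes tested and of abundant genes. Of 5 complex V assembly or inhibitor genes edgeR called 0 lower or higher. At an unadjusted p under 0.05 2 were lower, DESeq2 and voom each called 1 lower, and so did edgeR without HFD 1 and HFD 2. The inhibitor Atpif1 was at 3.51 to 4.87 CPM in chow and 3.10 to 10.1 in HFD (log2 0.24, adjusted p = 0.432).

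Upstream of complex III, 18 of 36 complex I genes fell and 0 rose (median -0.43), led by Ndufb9, a membrane-arm subunit (log2 -0.70, SE 0.146, adjusted p = 0.00148). Without HFD 1 and HFD 2, 23 fell (median -0.39). At an unadjusted p under 0.05, 0 complex I genes were higher with all libraries, and DESeq2 and voom called 0 higher. Of the 8 genes of cytochrome c and complex II 3 fell, the succinate dehydrogenase subunits Sdhd (log2 -0.59, adjusted p = 0.00454), Sdhb (log2 -0.50, adjusted p = 0.0092) and Sdha (log2 -0.69, adjusted p = 0.0239), and 4 fell without HFD 1 and HFD 2. Cycs, somatic cytochrome c, was at 5.07 to 15.2 CPM in chow and 0 to 45.0 in HFD, with the top in HFD 2 (log2 0.14, adjusted p = 0.848). Of 16 tricarboxylic acid cycle genes 5 fell, led by Dlat of pyruvate dehydrogenase (log2 -0.47, adjusted p = 0.00141), and without HFD 1 and HFD 2 7 fell and 1 rose. Of 18 carrier and import genes 6 fell and 1 rose, and 7 fell and 2 rose without those libraries. The gene that rose with all libraries was Slc25a4, the ADP/ATP exchanger typical of muscle, at 3.14 to 6.60 CPM in chow (median 4.77) and 6.36 to 37.0 in HFD (median 8.65), with a log2 change of 1.43 (SE 0.276, adjusted p = 0.000773) and 0.98 (adjusted p = 3.92e-05) without HFD 1 and HFD 2.

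Of 14 regulators of respiratory genes edgeR and DESeq2 called 0 with all libraries, voom called 1 lower, and at an unadjusted p under 0.05 1 was lower and 1 higher. Ppargc1a, a coactivator of mitochondrial genes, was at 2.16 to 5.19 CPM in chow (median 3.38) and 0 to 54.8 in HFD (median 3.56), log2 1.32 (adjusted p = 0.127). Without HFD 1 and HFD 2 it was called higher (log2 1.63, adjusted p = 0.0235), but its top value came from HFD 6, and the other 7 of these libraries had 3.00 to 6.48 CPM. Without HFD 6 as well, a choice made after seeing the data, it did not pass (log2 0.28, adjusted p = 0.255). Its relative Pprc1 was called higher without HFD 1 and HFD 2 (log2 0.69, adjusted p = 0.0194), also with its top in HFD 6 (17.0 CPM), and passed without that library as well (log2 0.49, adjusted p = 0.0439). In the fit without HFD 1 and HFD 2 the receptor Esrra was lower (log2 -0.36, adjusted p = 0.011), and so was the coactivator Ppargc1b (log2 -1.08, adjusted p = 0.000308). Nrf1 (log2 0.21, adjusted p = 0.272), Gabpa (log2 -0.18, adjusted p = 0.577) and Yy1 (log2 -0.05, adjusted p = 0.823), with values from all libraries, did not pass in either fit. These genes belong to the factors NRF1, GABP and YY1, whose motifs were searched above. The gene of SP1 was not on the list.

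The mitochondrially encoded partners of these complexes changed sign with the choice of libraries. With all libraries edgeR called 5 of 5 tested genes higher, with a median log2 of 6.23, while DESeq2 called 1 higher and 2 lower and voom called 0. All 5 were far above the other libraries in HFD 1 and HFD 2. Without them mt-Cytb of complex III was at 1099 to 1966 CPM in HFD 3 to 10 and 1499 to 3108 in chow and fell (log2 -0.45, SE 0.143, adjusted p = 0.0239). In the same fit mt-Co1, the catalytic subunit of complex IV, was at 4603 to 8516 CPM in HFD 3 to 10 and 7611 to 18440 in chow and fell (log2 -0.52, SE 0.172, adjusted p = 0.0293). mt-Atp6, the proton channel subunit of complex V, also fell there (log2 -1.23, SE 0.368, adjusted p = 0.0166), but from 0.14 to 0.35 CPM in chow to at most 0.205 CPM. mt-Co2 and mt-Co3 were at most 0.75 CPM in these 18 libraries and did not pass (adjusted p = 0.65 and 0.743), and mt-Atp8 had too few counts to be tested.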

How the data were processed

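Liver RNA libraries (10 chow, 10 HFD) were grouped by their labels. The tool fastp and the build mm10 are named, per the submitters' processing notes. Nothing used here names the aligner, the counting program, the annotation or whether strand was kept. The authors deposited a table of raw counts per gene, which was tested, and a table of FPKM values, which equal the deposited count over the library total and 1 length per gene. Of 55401 IDs 55141 were matched to GENCODE M21 (GRCm38, the assembly of mm10), whose coordinates are printed. Unmatched IDs held at most 0.00852% of a library.

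Counts were tested in edgeR 4.0.16 (R 4.3.3): filterByExpr (minimum count 10, total 15), TMM scaling, robust quasi-likelihood fit with diet as the only term, 2-sided F test, Benjamini-Hochberg adjustment over all genes tested, threshold 0.05. CPM values use TMM-scaled library sizes, so mitochondrial genes of HFD 1 and HFD 2 can exceed 1000000. Isoform shares used FPKM and a permutation test over libraries. Alternatives were DESeq2 1.42.0, limma 3.58.1 (voom, and limma-trend on log2 of FPKM plus 1 or 0.1), RLE or no scaling, no filter, nuclear protein-coding genes only, a replicate block, and fits without libraries. Only the edgeR fit was tried on simulated counts, drawn with chow means and chow spread for all libraries. It recovered 80% of 100 genes changed by a log2 of 0.5 and 98% of 100 changed by 1. Of its 185 calls 7 were of unchanged genes. The unlike makeup of HFD 1 and HFD 2 was not simulated, so its effect on the fit was not tested there. Sequence shared with other genes was counted as identical windows of 50 bases in M21 transcripts of other genes. Genes that overlap the subunit gene on its chromosome were left out of these counts. Promoter windows are from RefSeq. Tables and figures used Python 3.11.15, pandas 2.3.3 and matplotlib 3.10.9.

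The members and lists were chosen with earlier results of these data known. Values in full were planned for, per complex, the 4 members with the smallest p, the 2 with the highest chow FPKM, those not called or higher, and the isoform sets. Of each pathway list the 3 members with the smallest p were to be named, and a few fixed genes (Cyc1, Cycs, Ndufa4, Atpif1, Ppargc1a and the mitochondrially encoded partners); not all are printed. Surf1, Ppargc1b, Nrf1, Gabpa, Yy1, Usmg5 and the pseudogenes were named after their values were seen. The settings that leave out chow 9, chow 2 or HFD 6 together with other libraries were added after seeing the data.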

Additional observations from a re-analysis of the deposited data

Results flagged for a closer look

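In 20 genes the chow 2 library stood far above the other 9 chow libraries by Dixon's gap test. Its values, each beside the next highest chow library, were in complex III Uqcr10 (130.3 CPM, next 93.9), Uqcrb (83.7 CPM, next 60.9), Uqcrfs1 (229.7 CPM, next 187), Uqcrh (332 CPM, next 229) and Uqcrq (353 CPM, next 266). In complex IV they were Cox4i1 (527 CPM, next 419.7), Cox6b1 (266 CPM, next 215), Cox7a2 (244 CPM, next 158), Cox7a2l (139 CPM, next 107), Cox7b (138 CPM, next 107) and Cox8a (128 CPM, next 99.4). In complex V they were Atp5c1 (370.4 CPM, next 322), Atp5d (226 CPM, next 181), Atp5e (161 CPM, next 106), Atp5f1 (308 CPM, next 262), Atp5g1 (53 CPM, next 40.4), Atp5h (88.7 CPM, next 61.6), Atp5j (167 CPM, next 129), Atp5j2 (288 CPM, next 225) and Atp5o (34.9 CPM, next 19.7). Of 74 groups looked at in this way (37 genes in 2 diets) 26 stood out, where chance gives about 1 in 20 groups, or 3.7. The genes share libraries, so these 26 are not independent.

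In 5 genes HFD 6 stood far below the other HFD libraries, each beside the next lowest: Cox5a (18.2 CPM, next 29.2), Cox7a2 (56.1 CPM, next 91.6), Atp5e (25.9 CPM, next 61.5), Atp5j (37.8 CPM, next 81.4) and Atp5j2 (66.8 CPM, next 127). In 1 gene, Cox7a2l, HFD 2 stood above the rest, at 185 CPM against 107 in the next library. Chow 2 drew 3.10% of its counts from the mitochondrial genome, the most of the chow libraries, and HFD 6 drew 2.54%, the most of HFD 3 to 10. Whether these shares bear on the levels was not tested.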

How the results depend on the processing

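The count of 21 genes lower was 21 with DESeq2, 19 with RLE scaling, 20 with voom, 16 with no filter and 21 with nuclear protein-coding genes only. It was 0 with library totals only and in limma-trend on log2(FPKM + 1) and log2(FPKM + 0.1), with 0, 7 and 6 genes lower at an unadjusted p under 0.05. In these 3 settings HFD 1 and HFD 2 are scaled by totals that are mostly mitochondrial, and the median was -0.50, -0.89 and -0.95, against -0.08, -0.14 and -0.39 over all genes tested. Leaving out 1 library gave 17 to 22 lower and 1 to 1 higher, with medians from -0.51 to -0.42; the lowest count came without chow 6.

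The count of 1 gene higher (Atp5l) was 0 with DESeq2, voom, library totals only, both FPKM fits and the replicate block, and 0 without HFD 1 and HFD 2, without HFD 1, HFD 2 and chow 9, without HFD 1, HFD 2 and HFD 6, and without HFD 1, HFD 2, HFD 6 and chow 2. At an unadjusted p under 0.05, 1 gene was higher with DESeq2, library totals only and without HFD 1 and HFD 2, and 0 in the others. The log2 change of Atp5l was -0.14 with DESeq2, which replaces outlying counts, -0.14 without HFD 1 and HFD 2, -0.13 without chow 9 as well, -0.158 without HFD 6 as well, and -0.0802 without HFD 1, HFD 2, HFD 6 and chow 2. Without HFD 1 and HFD 2 the share differences were 0.808 percentage points for Atp5g1, 0.0539 for Atp5g2 and -0.862 for Atp5g3.

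The replicate numbers pair nothing in the labels: same-numbered chow and HFD libraries had correlations of deviations from -0.234 to 0.147, and only number 3 matched best with itself. With the replicate block 8 genes were lower and 0 higher, 24 and 0 at an unadjusted p under 0.05. Over all genes the median shifted to 0.20 with DESeq2 and 0.13 with no filter, both of which tested 27216 genes. Cox4i2, Cox6a2, Cox6b2 and Cox8b had too few counts to be tested. Cox7b2, Cox8c and the second Atp5o ID, which overlaps the first, had 0 counts in all 20 libraries, and whether reads were assigned elsewhere was not tested.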

Other observations

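Some processed pseudogenes that share sequence with subunit genes carried more counts than the genes themselves in most or all libraries. Gm10250, which shares 291 windows with Atp5h, was at 87.5 to 139 CPM in chow and 45.9 to 100.2 in HFD and was called lower by edgeR (log2 -0.39, SE 0.127, adjusted p = 0.0326), where Atp5h had a median of 57.8 CPM in chow. In HFD 1 and HFD 2 the order was turned, with Gm10250 at 90.6 and 67.4 CPM and Atp5h at 103 and 112. Gm5436, which shares 151 windows with Atp5o, was at 28.9 to 56.7 CPM in chow and 13.3 to 31.8 in HFD and was called lower (log2 -0.51, SE 0.139, adjusted p = 0.0123), where Atp5o had a median of 18.6 CPM in chow. Gm10221, the copy of Atp5l described above, was called lower with all libraries (log2 -0.54, SE 0.171, adjusted p = 0.0284) and not without HFD 1 and HFD 2 (log2 -0.44, adjusted p = 0.0675). Reads of a gene and its copy cannot be told apart in these windows. Usmg5, a membrane subunit of the synthase whose symbol lies outside the name rule, was at 17.6 to 38.5 CPM in chow and 10.4 to 22.5 in HFD. It was called lower with all libraries (log2 -0.49, SE 0.158, adjusted p = 0.0317) and not without HFD 1 and HFD 2 (log2 -0.40, adjusted p = 0.0657).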
